A study of Homo sapiens with 40 samples.

Results

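The first 3 days of SOX2 knockdown were examined in H1 human embryonic stem cells, by setting the SOX2 shRNA arrays of days 1, 2 and 3 against the control virus arrays of the same days. These 3 and 3 arrays were taken by their titles from the 40 arrays of the series. H1 and H9 are established embryonic stem cell lines, and the series followed 5 arms over 8 days, day 0 to day 7, with 1 array per arm and day. The arms were H1 cells with SOX2, NANOG or OCT4 shRNA, H1 cells with control virus, and H9 cells with OCT4 shRNA. A short hairpin RNA (shRNA) is cut in the cell into a small RNA that directs the loss of its target messenger.

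The groups used here were H1 cells with SOX2 shRNA virus on days 1 to 3, 1 array a day, and H1 cells with control virus on days 1 to 3, 1 array a day. All H1 groups were grown on Matrigel in mTeSR medium and received lentivirus with polybrene, so the control cells carry virus too. The labels do not say whether the control virus encodes a hairpin. Arrays of day 0 and of days 4 to 7 from both arms entered the fit for their scatter and are given where a later or earlier value is needed. Each arm is 1 time course and appears to rest on 1 hairpin, since the labels name no other, so the hairpin, the culture and SOX2 itself cannot be told apart. Days stood in for replicates, and p-values measure the scatter of days and not the spread between cultures.

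SOX2 is a transcription factor of the SOXB1 group that binds DNA together with OCT4 (the product of POU5F1) at many genes of the pluripotent state, its own gene among them. SOX3 belongs to the same SOXB1 group, while SOX21 belongs to the SOXB2 group, whose members counteract SOXB1 factors in neural progenitors. In embryonic stem cells loss of SOX2 is known to be followed by differentiation, and in the nervous system SOX2 keeps progenitors undifferentiated.

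Values are log2 intensities of Illumina bead arrays, which the authors had already normalized between arrays, and each gene was represented by its brightest probe. Differences are SOX2 shRNA minus control on the same day, so a log2 difference of -1 is a 2-fold lower level. A gene was called when the limma test over days 1 to 3, with the day as a block, gave a Benjamini-Hochberg adjusted p under 0.05 among 12619 genes. "Above background" means above 6.57, a level derived from probes for olfactory receptor genes. In such bulk samples fewer cells of a type and less RNA per cell cannot be told apart. The number of arrays limits the precision.

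SOX2 itself was low in the knockdown arm from the first array onward. Its level was 9.86, 9.98 and 10.13 on days 1, 2 and 3 with SOX2 shRNA, against 12.01, 11.98 and 11.74 in control cells. The 2 sets of 3 arrays did not overlap, and all 6 lay well above background. The means were 9.99 ± 0.14 with SOX2 shRNA and 11.91 ± 0.15 in control cells (SD, n = 3 each), a log2 difference of -1.92 ± 0.12 (SE, limma adjusted p = 1.77e-09), or 3.79-fold lower. An exact two-sided permutation test of 3 against 3 arrays, which ignores the pairing by day, gave p = 0.1. This is the smallest p that such an unpaired test allows, and it was 0.3 after adjustment over SOX2, POU5F1 and NANOG. A second SOX2 probe gave -2.22. On the array labelled day 0, SOX2 was already at 9.98 with SOX2 shRNA against 11.76 in control cells, a log2 difference of -1.79. The labelled days therefore do not start from an unperturbed SOX2 level, and the day 0 difference taken off left -0.13 for the brighter SOX2 probe over days 1 to 3 (adjusted p = 0.922). The second probe differed by -1.68 on day 0 and by -2.22 over days 1 to 3, a wider step that was not tested.

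The other core factors were not called. POU5F1 averaged 12.79 ± 0.05 with SOX2 shRNA and 12.79 ± 0.07 in control cells (SD, n = 3 each; exact permutation p = 1). NANOG, a homeobox factor of the same network, averaged 8.57 ± 0.49 with SOX2 shRNA and 8.94 ± 0.37 in control cells (SD, n = 3 each), a difference of -0.37 that missed the threshold (limma adjusted p = 0.0813; exact permutation p = 0.4). Its daily differences were -0.17, -0.54 and -0.41.

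**Figure D1:**
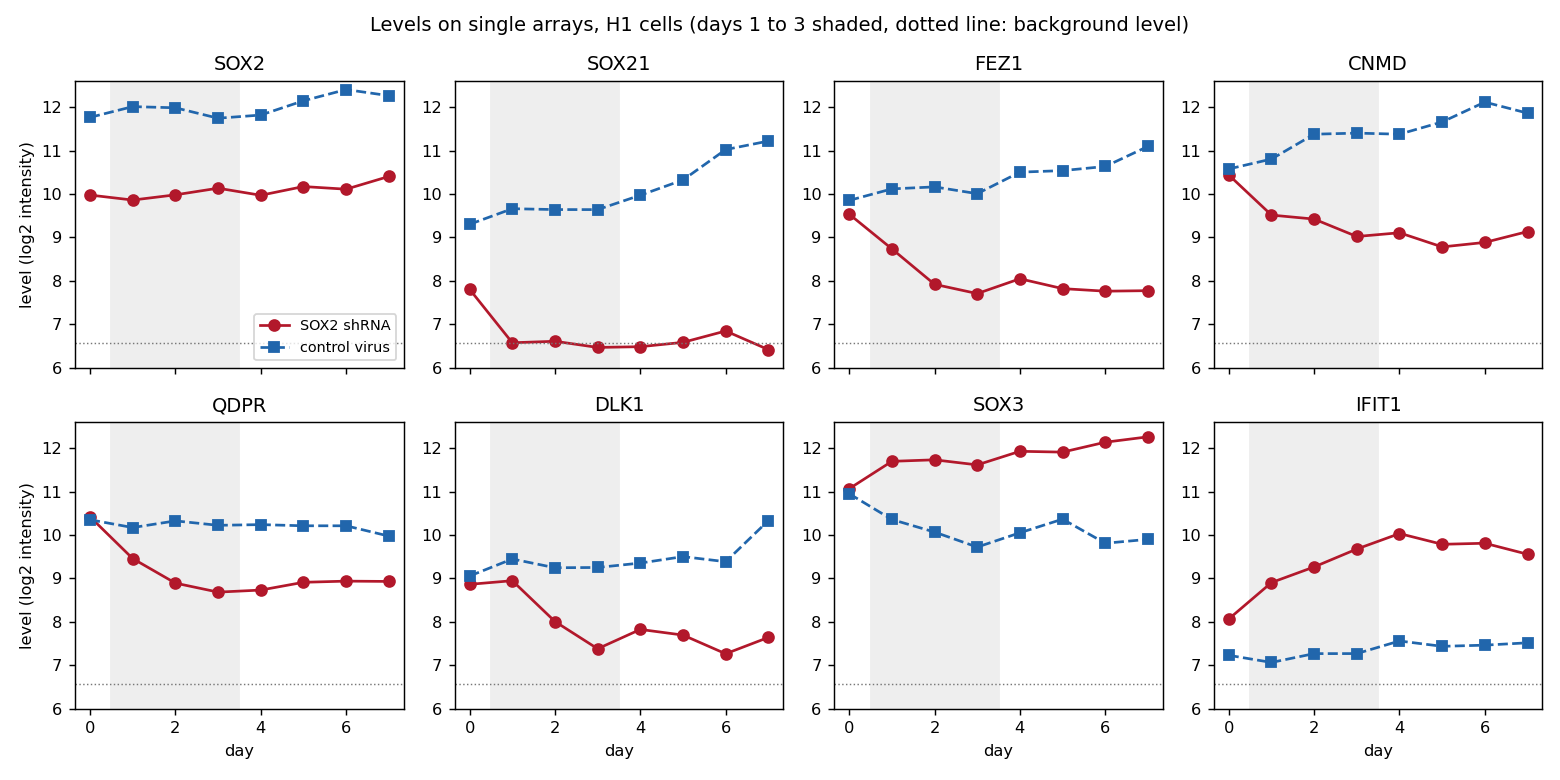
Levels (log2 intensity, vertical axis) of 8 genes on single arrays by day (horizontal axis) in H1 cells with SOX2 shRNA (red circles) and with control virus (blue squares). SOX2 and SOX21 were apart on day 0, while FEZ1, CNMD, QDPR, DLK1 and SOX3 began within 0.32 of each other and separated over days 1 to 3.

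Over days 1 to 3, 617 genes were called, 4.89% of those tested, of which 247 rose (1.96%) and 370 fell (2.93%). Most differences were small: 182 of the calls were at least 1.5-fold, and 24 were at least 2-fold (0.19% of genes tested), 7 of them higher and 17 lower with SOX2 shRNA. In all 24 the arms did not overlap on days 1 to 3, as was the case for 18.8% of all genes tested. The 24 were chosen on these same arrays, so their lack of overlap was largely fixed by the choice and is only a description. The 24 also kept their sign on each of days 4 to 7, and 21 of them were at least 2-fold apart in the mean of those days. Among all 12619 genes, 101 were at least 2-fold apart in that mean with the sign of their days 1 to 3 difference. Of the 617, 520 (84.3%) kept their sign on each of days 4 to 7, against 29% of all genes. On day 0, 467 of the 617 (75.7%) and 21 of the 24 already had that sign, against 57.3% of all genes. The number of calls rested on days 2 and 3, being 237 without day 2 and 180 without day 3. It was 273 without the day block and 139 with all H1 arms in the fit. With the day 0 difference taken off, 1 gene was called (0.00792%), at 915 genes with an unadjusted p under 0.05. That contrast rests on a single pair of day 0 arrays, and its standard errors were larger (0.28 for SOX3, against 0.14 without day 0).

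SOX21 stood first among the falls. Its level was 6.58, 6.61 and 6.47 on days 1, 2 and 3 with SOX2 shRNA, against 9.66, 9.64 and 9.64 in control cells. The knockdown arrays lay at the background level, 2 of 3 above it, so further loss could not have been measured. The difference was -3.10 ± 0.16 (SE, adjusted p = 2.17e-10), and it was -1.50 on day 0, when SOX21 was at 7.81 with SOX2 shRNA against 9.30 in control cells. SOX21 and SOX2 were the 2 genes at least 2-fold lower on the day 0 arrays (0.0158% of genes tested), and none was 2-fold higher (0%). On days 4 to 7 the control level of SOX21 kept climbing while the knockdown level stayed near background, and the daily differences reached -4.80 on day 7.

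SOX3, the SOXB1 relative of SOX2, went the other way. It was at 11.70, 11.73 and 11.62 with SOX2 shRNA on days 1, 2 and 3, against 10.36, 10.07 and 9.72 in control cells. The groups did not overlap, and the difference was 1.63 ± 0.14 (SE, adjusted p = 2.41e-07), or 3.1-fold higher. On day 0 the arms were alike, at 11.07 with SOX2 shRNA and 10.95 in control cells, so both a higher level in the knockdown arm (by 0.61 from its day 0) and a lower level in the control arm (by 0.90) made up the gap. Among 13 SOX genes tested, SOX3 and SOX9 rose and SOX21, SOX2 and SOX8 fell. SOX9, a factor of cartilage and neural crest, differed by 0.66 and SOX8 by -0.50, and both had their largest early difference on day 3 (1.05 for SOX9 and -0.84 for SOX8).

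The order of the responses was read from the first day on which a gene was at least 2-fold apart and remained so to day 3. By this description 2 genes (SOX21 and SOX2) were apart from day 0, 12 from day 1, 8 from day 2 and 35 from day 3. Single days compare 1 array with 1 array, so they carry no test. On day 1, 9 genes (0.0713%) were 2-fold higher and 14 (0.111%) 2-fold lower. On day 2 the numbers were 13 (0.103%) and 27 (0.214%), and on day 3 they were 23 (0.182%) and 34 (0.269%). As a measure of how far single arrays move without knockdown, consecutive days of the control arm had 23 genes higher and 2 lower on day 1 against day 0, 3 and 3 on day 2 against day 1, and 0 and 2 on day 3 against day 2. Later steps of the control arm reached 43 higher and 7 lower on day 7 against day 6, so 1 array can differ from the day before by nearly as many genes as the 57 that were apart on day 3. The class of a gene near the threshold is uncertain: CCND1 with 0.98 and 0.99 on days 1 and 2, and PNCK with -0.99 on day 1, just missed an earlier class, while CLC, at -1.01 on day 1, just made its own.

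**Figure D2:**
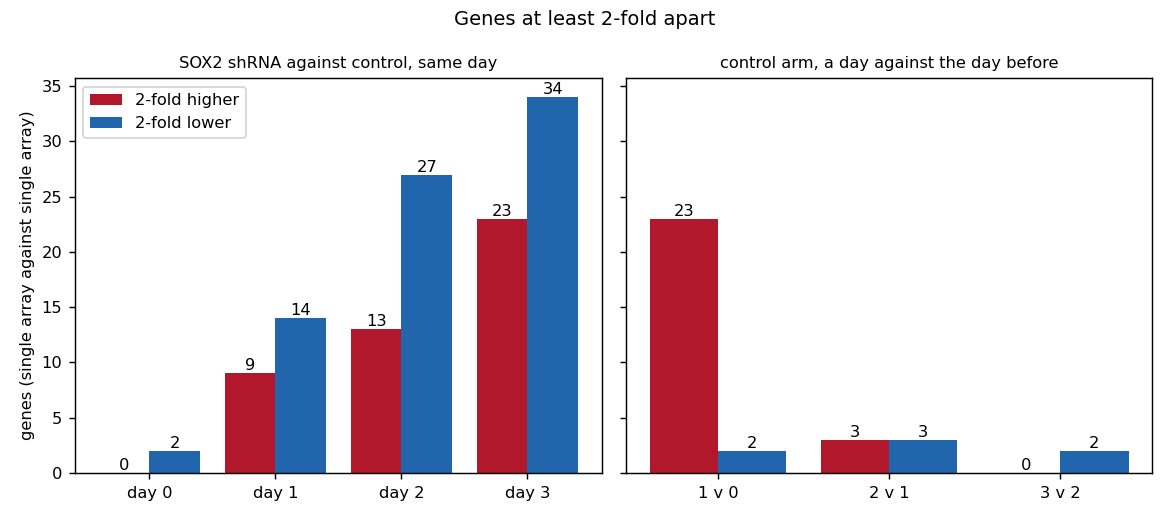
Numbers of genes (vertical axis) at least 2-fold higher (red bars) or lower (blue bars), single array against single array. Left, SOX2 shRNA against control on days 0 to 3, with 0 and 2, 9 and 14, 13 and 27, and 23 and 34 genes. Right, each day of the control arm against the day before.

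The 12 genes apart from day 1 held 7 that were lower, FEZ1, CNMD, MIAT, CFAP95, TMEM158, PRODH and CLC, and 5 that were higher, IFIT1, SOX3, IFIT2, ALKAL2 and PDGFRB. All 12 were called over days 1 to 3, and 10 of them were at least 2-fold apart in the mean of days 4 to 7 (CLC and ALKAL2 were not, at -0.63 and 0.93). Of all 12619 genes, 101 were that far apart in the later mean with an unchanged sign.

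FEZ1, an adaptor of kinesin transport in growing axons, was at 8.74, 7.92 and 7.71 with SOX2 shRNA on days 1, 2 and 3, against 10.12, 10.16 and 10.01 in control cells. Its difference was -0.32 on day 0, then -1.38, -2.24 and -2.30, with a mean of -1.97 ± 0.16 (SE, adjusted p = 1.02e-07). The control level was flat, so the knockdown arm moved. Other FEZ1 probes gave -1.52 and -0.55, and a probe near background gave -0.15.

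CNMD, the cartilage glycoprotein chondromodulin, was at 9.51, 9.42 and 9.02 with SOX2 shRNA, against 10.80, 11.38 and 11.40 in control cells. The daily differences were -1.29, -1.95 and -2.38 after -0.14 on day 0, and the mean was -1.87 ± 0.16 (SE, adjusted p = 3.68e-07). A second probe of CNMD gave -1.82. The long noncoding RNA MIAT was at 8.05, 8.28 and 8.22 with SOX2 shRNA and at 9.75, 10.15 and 10.23 in control cells, a difference of -1.86 ± 0.14 (SE, adjusted p = 5.29e-08) that was nearly complete on day 1 (-1.70).

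TMEM158, a membrane protein first described as induced by RAS, was at 10.62, 10.19 and 10.10 with SOX2 shRNA against 11.85, 11.67 and 12.07 in control cells. It differed by -0.61 on day 0 and by -1.97 on day 3. PRODH, the enzyme of the first step of proline breakdown, and CFAP95, a protein of cilia, had another form. CFAP95 was at 8.51, 8.41 and 8.75 with SOX2 shRNA, against 9.97, 10.24 and 10.25 in control cells. Its knockdown level was that of day 0 (8.62), whereas the control level had been 8.58 on day 0. The difference of -1.60 ± 0.10 (SE, adjusted p = 4.33e-09) therefore lay in a higher control level, and CFAP95 was the 1 gene called after the day 0 difference was taken off (-1.64, adjusted p = 0.00177). PRODH was alike in this, with a knockdown mean of 8.91 against 8.96 on day 0, and a control mean of 10.42 against 9.51 on day 0.

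The 24 genes were sorted by the same distinction, which was not counted over all genes, so the numbers only describe these 24. In 15 of them the knockdown arm had moved further from its own day 0 level by days 1 to 3, and in 9 the control arm had. The 9 were SOX2, CFAP95, PRODH, CLC and NPTX1, which were lower with SOX2 shRNA, and FZD2, CCND1, PDGFRB and SOX3, which were higher. SOX2 moved little in either arm (0.02 with SOX2 shRNA and 0.15 in control cells), since its gap was there on day 0. ALKAL2, counted with the knockdown arm, moved almost equally in both (0.46 and -0.43). CLC encodes a galectin of white blood cells, NPTX1 a secreted pentraxin of neurons, and PDGFRB a receptor for platelet-derived growth factor. PDGFRB was at 8.19, 8.35 and 8.41 with SOX2 shRNA against 6.98, 7.15 and 7.30 in control cells, and its control level on day 0 had been 7.95. Day 0 is 1 array per arm, and no spread can be given for it.

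IFIT1, an antiviral protein that binds foreign RNA, had the largest rise. It was at 8.91, 9.27 and 9.68 with SOX2 shRNA on days 1, 2 and 3, against 7.07, 7.27 and 7.27 in control cells. The difference was 2.08 ± 0.12 (SE, adjusted p = 5.2e-10), or 4.23-fold higher, and it was 0.84 on day 0. Its relative IFIT2 was at 7.33, 7.66 and 7.99 with SOX2 shRNA, and all 3 control arrays were below background, so IFIT2 was at least 2.13-fold higher. IFIT2 was above background on 8 of 16 arrays, all with SOX2 shRNA, and passed the filter only through them. A further IFIT1 probe, above background on 5 of 16 arrays, differed by 0.32 and was not called.

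The interferon and double-stranded RNA list was called in both directions. Of 23 members tested, against 1.96% of all genes higher and 2.93% lower, 4 rose (IFIT1, IFIT2, ISG15 and IFIT3) and 2 fell (IFITM2 and IFITM3), and the list median was 0.095, against 0 over all genes. IFIT2 passed the filter only through its SOX2 shRNA arrays and so had to differ, and its rise adds nothing to this count. ISG15, a ubiquitin-like modifier induced by interferon, differed by 0.58. IFIT3 was below background on all 3 control arrays and at least 1.21-fold higher. The membrane proteins IFITM2 and IFITM3, which restrict virus entry, differed by -0.40 and -0.38. Sensors and other effectors were not called, with MX1 at 0.02, OAS1 at 0.10, EIF2AK2 at -0.05 and RIGI at 0.21. In the other hairpin arms IFIT1 differed from the same 3 control arrays by 0.24 with NANOG shRNA and by 0.13 with OCT4 shRNA, and IFIT2 was below background on all 6 of those arrays.

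Promoter windows of 300 bases, from 250 before to 50 after the start of the gene, are shown for the largest fall and for a pair of interferon genes that rose together. They come from RefSeq (GRCh38.p14), 5′ to 3′ in the direction of the gene. Capitals mark matches, on either strand, to CTTTGTT and CATTGTT (forms of the SOX motif), to ATGCAAAT (the octamer of POU factors) or to GAAA followed, after any 2 bases, by GAAA (the core of the interferon-stimulated response element).
SOX21 (chr13:94712496-94712795, minus strand): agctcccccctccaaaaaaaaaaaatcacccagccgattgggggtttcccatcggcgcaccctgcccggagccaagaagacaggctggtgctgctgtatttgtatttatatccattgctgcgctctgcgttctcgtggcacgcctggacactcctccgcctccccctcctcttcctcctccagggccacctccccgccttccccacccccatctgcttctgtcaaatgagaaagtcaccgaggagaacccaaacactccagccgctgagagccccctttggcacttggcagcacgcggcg
IFIT1 (chr10:89392373-89392672, plus strand): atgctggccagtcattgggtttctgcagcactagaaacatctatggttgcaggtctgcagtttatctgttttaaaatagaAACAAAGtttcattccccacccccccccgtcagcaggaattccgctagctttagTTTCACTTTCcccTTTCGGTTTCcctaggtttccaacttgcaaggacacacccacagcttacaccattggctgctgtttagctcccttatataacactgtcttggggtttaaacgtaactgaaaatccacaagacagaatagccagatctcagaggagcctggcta
ISG15 (chr1:1013247-1013546, plus strand): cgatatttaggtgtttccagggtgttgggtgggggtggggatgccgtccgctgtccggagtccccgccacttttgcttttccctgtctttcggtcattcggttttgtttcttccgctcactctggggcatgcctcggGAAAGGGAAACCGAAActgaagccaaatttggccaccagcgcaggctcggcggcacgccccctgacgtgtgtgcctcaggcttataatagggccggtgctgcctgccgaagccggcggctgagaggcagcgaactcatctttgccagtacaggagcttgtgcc
SOX21 held none of the 4 motifs. IFIT1 held the GAAA pair in 2 places and CTTTGTT in 1, and ISG15 held 2 overlapping GAAA pairs. Of 19 interferon list members with a window, 15 held the GAAA pair, whether they were called or not, against 2.6% of the windows of 10054 tested genes. The pair is the core of the interferon-stimulated response element, so its share in an interferon list does not bear on the knockdown. One or both SOX motifs stood in 2 of the 18 windows found for the 24 2-fold genes (ENAH and IFIT1), against 5.0% of those 10054, and the octamer stood in 0 of the 18, against 1.4%. These are matches of letters in a short window near the start, and most sites described for SOX2 lie outside such windows.

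The 8 genes apart from day 2 were DLK1, QDPR, NCALD, PNCK and PIPOX, which were lower, and FZD2, TSPAN18 and NTS, which were higher. DLK1, a membrane protein related to NOTCH ligands, was at 8.95, 8.01 and 7.38 with SOX2 shRNA on days 1, 2 and 3, against 9.45, 9.25 and 9.25 in control cells. It had the widest scatter of the group, and the call (-1.20 ± 0.19 SE, adjusted p = 0.000571) was lost with all H1 arms in the fit (adjusted p = 0.387). A dimmer DLK1 probe gave -0.65.

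QDPR, which regenerates the tetrahydrobiopterin cofactor, was at 9.46, 8.89 and 8.69 with SOX2 shRNA, against 10.17, 10.33 and 10.22 in control cells. It began level, with a day 0 difference of 0.07, and fell by 1.23 ± 0.13 (SE, adjusted p = 7.17e-06) over days 1 to 3. FZD2, a WNT receptor, was at 9.81, 9.86 and 9.94 with SOX2 shRNA, against 9.11, 8.77 and 8.48 in control cells, and averaged 1.08 ± 0.13 higher (SE, adjusted p = 2.27e-05). NCALD, a neuronal calcium sensor, was below background on all 3 knockdown arrays and at least 1.86-fold lower. NTS, the precursor of neurotensin, differed by 0.86, 1.06 and 1.03 on the 3 days.

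Of the 35 genes in the day 3 class, 15 were higher and 20 lower with SOX2 shRNA. AUTS2 is among them because its day 2 difference just missed 2-fold, although it was 2-fold apart on day 1 (-1.01). Day 3 alone places a gene in this class, and 30 of the 35 were called over days 1 to 3. In the mean of days 4 to 7, 19 of the 35 were at least 2-fold apart with the same sign, against 101 of all 12619 genes. SIRT1, a deacetylase that uses NAD, had the largest difference of this class, at 8.29 with SOX2 shRNA against 10.04 in control cells, after -0.76 and -0.99 on the days before. The zinc finger factor SP8 was at 9.17 with SOX2 shRNA against 7.60 in control cells on day 3. SOCS2, a suppressor of cytokine signalling, was 1.37 lower on the log2 scale on day 3 and 0.15 lower on day 1. A second SOCS2 probe, above background on all 16 arrays, differed by -0.17 on day 3. Over days 1 to 3 that probe differed by -0.20 and was not called (limma adjusted p = 0.404). DACT1, which acts on Dishevelled in WNT signalling, was apart by -1.33 on day 3 and by -0.73, -0.63, 0.18 and 0.30 on days 4 to 7, and the change between both windows was not called (0.54, adjusted p = 0.419). HES1, a target of NOTCH, and CCND1, cyclin D1 of the G1 phase, were higher on day 3 by 1.13 and 1.36.

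**Figure D3:**
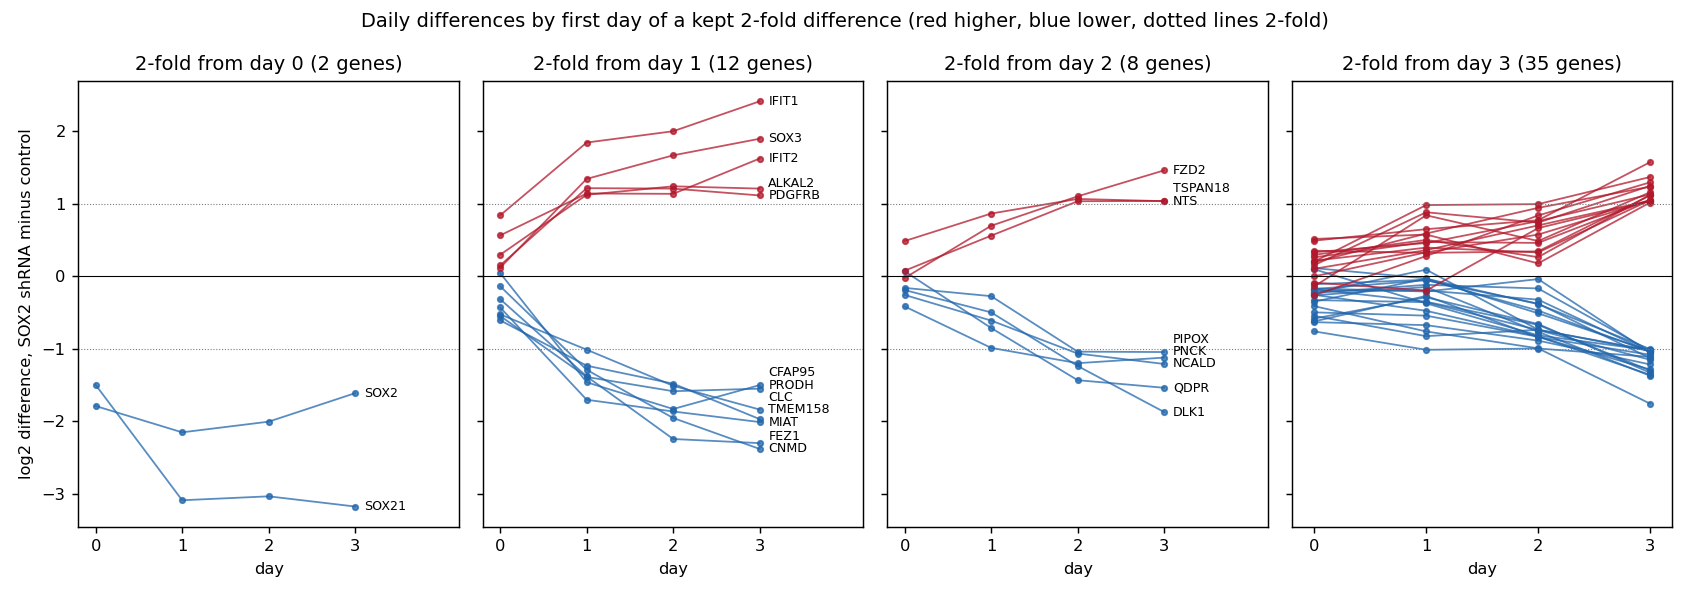
Daily log2 differences, SOX2 shRNA minus control (vertical axis), over days 0 to 3 (horizontal axis), for the genes first 2-fold apart from day 0 (2 genes), day 1 (12), day 2 (8) and day 3 (35). Red lines are genes higher with SOX2 shRNA on day 3 and blue lines are genes lower; dotted lines mark 2-fold.

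A further 9 of the 23 genes that were 2-fold apart on day 1 did not stay so to day 3. The immediate early factor EGR1 had daily differences of -1.49, -0.67 and -0.69, and the TGF-beta family ligand NODAL had 1.08, 0.24 and -0.04. The metallothionein genes MT1G and MT1E, which encode metal-binding proteins, had -1.36, -0.86 and 0.13, and -1.06, -0.55 and 0.37. NPTX1 had -1.56, -1.74 and -0.96, AUTS2, a nuclear protein of neurons, averaged -1.04 with a day 2 value just under 2-fold, and FOXO4, MRGPRF and OGFRL1 were the remaining 3. NPTX1 was at 7.69, 8.03 and 8.57 with SOX2 shRNA against 9.26, 9.77 and 9.52 in control cells, and its call (adjusted p = 0.000173) was lost with all H1 arms in the fit (adjusted p = 0.125).

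A straight line through the differences of days 0 to 3 tested which gaps widened by day. It called 6 genes (0.0475%), with 1242 at an unadjusted p under 0.05. The gap widened downward for CNMD (-0.74 ± 0.11 log2 per day, SE, adjusted p = 0.0084), FEZ1 (-0.68 ± 0.11, adjusted p = 0.0129) and QDPR (-0.55 ± 0.09, adjusted p = 0.0129). It widened upward for ACTG2, a smooth muscle actin (0.52 per day), IFIT1 (0.49) and FZD2 (0.49). ACTG2 began at -0.26 on day 0 and had 0.28, 0.84 and 1.29 on days 1 to 3. The calls rested on single days: 0 genes were called without day 0, 3 without day 2, 2 without day 3, 3 without day 5 and 16 without day 6. SOX2 had a slope of 0.07 (adjusted p = 0.85) by its brighter probe, while the daily differences of its second probe were -1.68, -1.87, -2.38 and -2.41 over days 0 to 3, so the SOX2 probes disagree on whether its gap widened.

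Over all 617 calls the median size of the daily difference was 0.202, 0.425, 0.508 and 0.6 over days 0 to 3, against 0.152, 0.14, 0.15 and 0.174 over all genes. The calls were chosen on days 1 to 3, so their sizes there describe them and test nothing. The largest of the 3 daily differences fell on day 3 for 53.5% of the calls and 40.7% of all genes. Seen from the later window, which shares no array with days 1 to 3, 100 genes were at least 2-fold apart in the mean of days 4 to 7 with 1 sign throughout. Of these, 3 had reached 50% of their later difference from day 0 on, 27 from day 1, 28 from day 2 and 22 from day 3, and 20 had not by day 3. Their median share of the later difference was 15.5%, 45.3%, 59.6% and 73% over days 0 to 3.

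The difference between both windows was tested directly, and 45 genes were called (0.357%), 16 upward and 29 downward, with 1343 at an unadjusted p under 0.05. The phosphatase DUSP6, a feedback inhibitor of ERK, differed by 0.31, 0.18 and -0.01 on days 1 to 3 and by 0.88 to 2.29 on days 4 to 7, a change of 1.41. ACTG2 changed by 1.28 and WLS, which carries WNT proteins to the cell surface, by 1.01. NPTX1 changed by -1.60, the noncoding RNA SNAR-A1 by -1.17 and PDLIM3, a protein of muscle Z-discs, by -0.97. RRM2, the small subunit of ribonucleotide reductase, was higher by 0.64 on days 1 to 3 and differed by -0.09 later, a change of -0.72. This count was the least stable: 4 without day 1, 11 without day 2, 0 without day 5, 76 without day 4 and 26 without day 7, and 2 without the day block.

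Genes of the pluripotent state held 1 rise and 4 falls, where 1.96% of all genes rose and 2.93% fell. Of 23 regulators tested, MYCN rose (0.36) and SOX2, UTF1 (-0.67), MYC (-0.56) and PRDM14 (-0.52) fell, with a list median of -0.18 against 0 over all genes. UTF1, a chromatin factor of stem cells, was at 8.36, 7.77 and 7.92 with SOX2 shRNA, against 8.87, 8.51 and 8.68 in control cells. SALL4 (-0.14), LIN28A (-0.25), DNMT3B (-0.28) and DPPA4 (-0.35) were not called. The summed level of the list was 60504 to 62650 with SOX2 shRNA and 70985 to 74548 in control cells, in linear units. This sum includes SOX2, the target of the hairpin. It is also weighted to bright genes such as LIN28A (mean 13.43 with SOX2 shRNA and 13.68 in control cells), which was not called. Among 26 genes described as bound by SOX2 with OCT4, 3 rose (LEFTY1, LEFTY2 and GAP43) and 3 fell (SOX2, UTF1 and ZIC2), with a median of -0.108.

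Each of the 4 signalling lists held 2 or 3 calls, where 4.89% of all genes were called. In the NODAL list LEFTY1 (0.42) and LEFTY2 (0.64), secreted NODAL inhibitors, were the 2 calls of 14, and both were at their highest on day 1 in either arm: LEFTY2 was at 9.92, 8.46 and 7.85 with SOX2 shRNA against 9.24, 7.75 and 7.33 in control cells. Of 13 BMP genes, ID3 (0.67) and BAMBI (0.59) rose and ID2 (-0.47) fell. Of 18 WNT genes, FZD2 and the secreted inhibitor SFRP1 (0.70) rose and FZD7 (-0.79) fell. A dimmer FZD7 probe, above background on all 16 arrays, differed by -0.14 and was not called (limma adjusted p = 0.584). Of 25 FGF and ERK genes, CCND1 (1.11) rose and EGR1 (-0.95) fell. The medians of these lists were -0.013, 0.062, 0.001 and -0.021.

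The germ layer lists held from 0 to 3 calls each, where 4.89% of all genes were called. Of 15 neuroectoderm genes 0 rose and 3 fell (SOX21, DLK1 and ZIC2), and PAX6, an early neural factor, differed by 0.03. Of 2 mesendoderm genes and 6 endoderm genes tested, 0 were called, and 13 and 12 further members of those lists did not pass the filter on dim probes. In the trophoblast list TFAP2C fell (-0.65), the 1 call of 13, and KRT7, KRT8 and KRT18 were not called. In the neural crest list SOX9 rose and DLX5 fell (-0.75), of 12.

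The muscle and fibroblast lists had the highest medians, and rises were 4 of 9 in each, where 1.96% of all genes rose. Only 9 of 20 listed muscle and mesoderm genes and 9 of 14 listed fibroblast genes were tested. The lists were chosen with earlier results of these data known, so these shares are a description and not a test. Of 9 muscle and mesoderm genes 4 rose, ACTC1 (0.95), MYL9 (0.65), CNN1 (0.53) and TAGLN (0.49), all parts of the contractile apparatus, and the median was 0.353. The summed level was 12957 to 14963 with SOX2 shRNA and 8392 to 10860 in control cells. ACTC1 was at 11.00, 11.00 and 11.77 with SOX2 shRNA against 10.12, 10.26 and 10.52 in control cells. ACTA2 (-0.19) and the mesoderm factor HAND2 (-0.09) were not called. Actin genes are near-identical copies, and their probes may share signal. Of 9 fibroblast genes 4 rose (PDGFRB, COL1A2, S100A4 and COL6A3) and 2 fell, VIM (-0.73) and THY1 (-0.62), with sums of 15438 to 22068 with SOX2 shRNA and 20900 to 23594 in control cells. In the blood and endothelial list the receptor TEK rose (0.58), 1 of 4. The part of other cell types in these differences was not tested.

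Stress and growth lists held rises and falls, where 1.96% of all genes rose and 2.93% fell. Of 26 proliferation genes 5 rose, CCND1, RRM2, CCNE1 (0.58), MCM4 (0.39) and CDC25A (0.38), which act in G1 and S phase, and 4 fell, BUB1 (-0.56), PLK1 (-0.47), TOP2A (-0.35) and CDC20 (-0.35), which act around mitosis. The list median was 0.109. Other members of both phases were not called, such as PCNA (0.21) and E2F1 (0.12) of G1 and S phase. Around mitosis AURKA (-0.33) and CCNB2 (-0.24) were not called, nor were CCNB1 (0.10) and BUB1B (0.06). Of 17 p53 response genes PHLDA3 (0.54) and CDKN1A (0.47) rose. Of 18 hypoxia genes BNIP3 (-0.58), ANKRD37 (-0.58) and ADM (-0.45) fell, while LDHA and SLC2A1 were not called. Of 7 metallothioneins MT1G, MT1F and MT1X fell, and the list median was -0.881 on day 1, -0.554 on day 2 and 0.371 on day 3. Metallothionein probes may share signal. Of 17 genes of amino acid and unfolded protein stress, 12 of cholesterol synthesis and 9 of the RNA interference pathway, 0 were called.

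**Figure D4:**
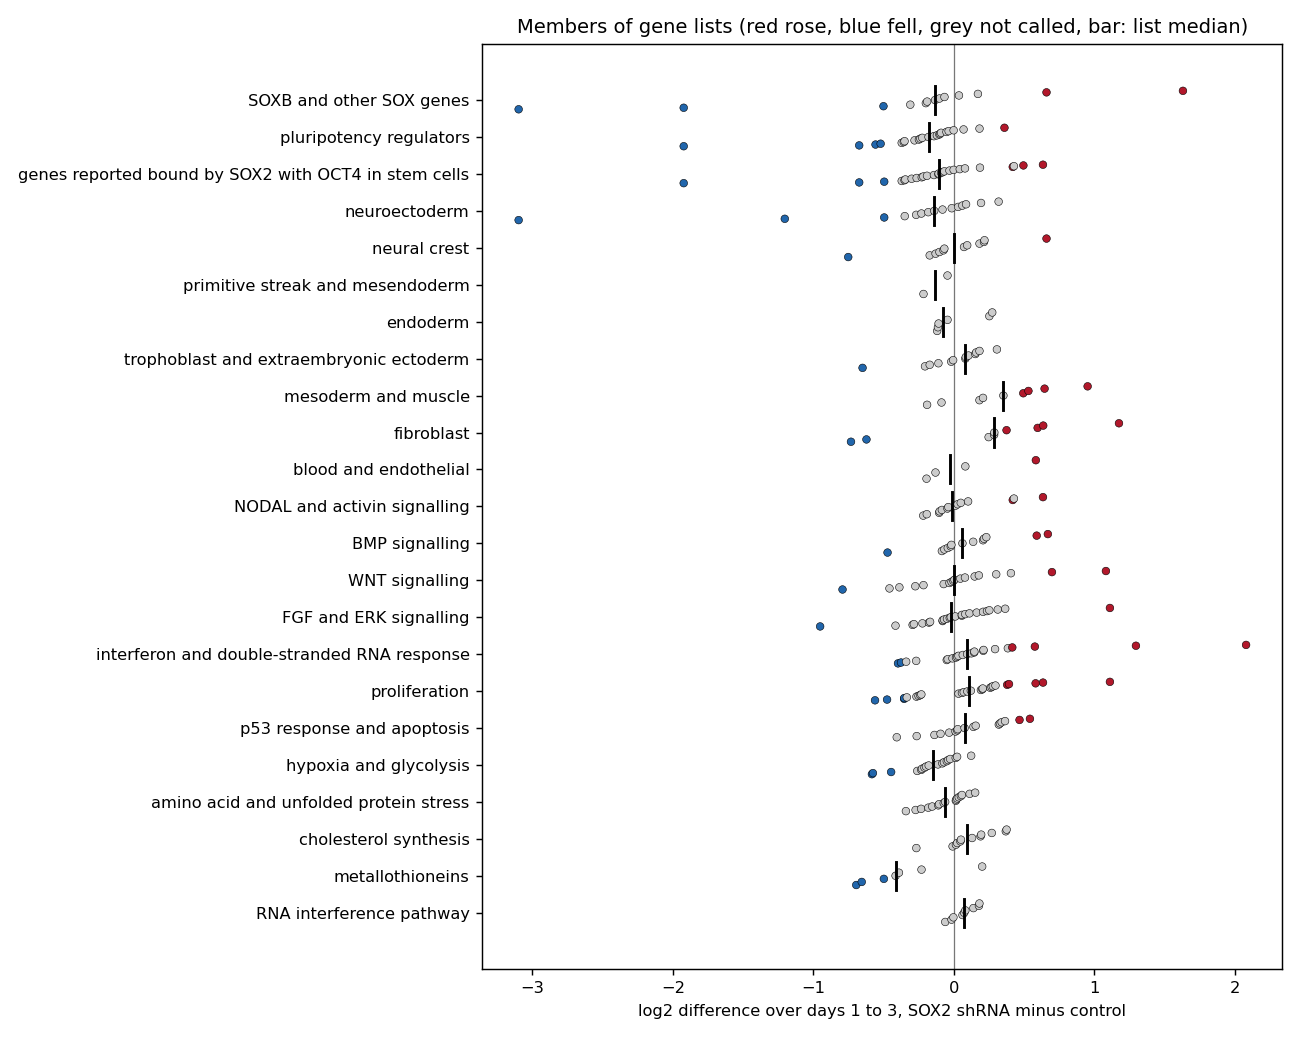
Log2 difference over days 1 to 3, SOX2 shRNA minus control (horizontal axis), for each tested member of 23 gene lists (rows). Red points rose, blue points fell and grey points were not called; black bars are list medians, the highest being 0.353 for muscle and mesoderm and the lowest -0.414 for metallothioneins.

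To set the SOX2 arm against other hairpin arms without the control arrays, days 1 to 3 were compared with the mean of the NANOG and OCT4 shRNA arms in the same line. Of 13357 genes, 175 were higher (1.31%) and 170 lower (1.27%) with SOX2 shRNA. This comparison and the one with control virus share the 3 SOX2 shRNA arrays. The 5 largest differences downward were SOX21 (-3.45), IGFBP5 (-2.10), SOCS2 (-1.88), DLX5 (-1.80) and PKDCC (-1.75). The 5 largest upward were IFIT1 (1.90), GAL (1.87), SOX3 (1.71), ACTA1 (1.68) and POU5F1 (1.66), the last of which is itself the target of the OCT4 hairpin. Some of these gaps lay in the other arms: GAL differed from control by 0.24 with SOX2 shRNA, by -2.57 with NANOG shRNA and by -0.69 with OCT4 shRNA. PKDCC differed from control by 0.31, 1.11 and 3.00 in the same order. SOX21 was at 6.58, 6.61 and 6.47 with SOX2 shRNA, against 9.25, 9.61 and 10.66 with NANOG shRNA and 9.33, 10.47 and 10.68 with OCT4 shRNA. QDPR differed by -1.18 (adjusted p = 2.02e-05). The 345 calls became 37 without day 2, 87 without day 3 and 198 without day 5.

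The 24 genes had varied values in the other knockdown arms. CLC differed from the control arrays by -1.45 with SOX2 shRNA, by -1.64 with NANOG shRNA and by -1.88 with OCT4 shRNA. NPTX1 had -1.42, -1.78 and -2.33 in the same order, SIRT1 had -1.17, -0.95 and -1.15, and CCND1 had 1.11, 0.85 and 0.91. SOX21 had -3.10, 0.20 and 0.51, QDPR had -1.23, -0.08 and -0.02, and IFIT1 had 2.08, 0.24 and 0.13. SOX3 had 1.63, 0.69 and -0.85, and CFAP95 had -1.60, -0.45 and -2.42. All 3 values of a gene use the same 3 control arrays, so a control array that stands apart moves all 3 together.

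**Figure D5:**
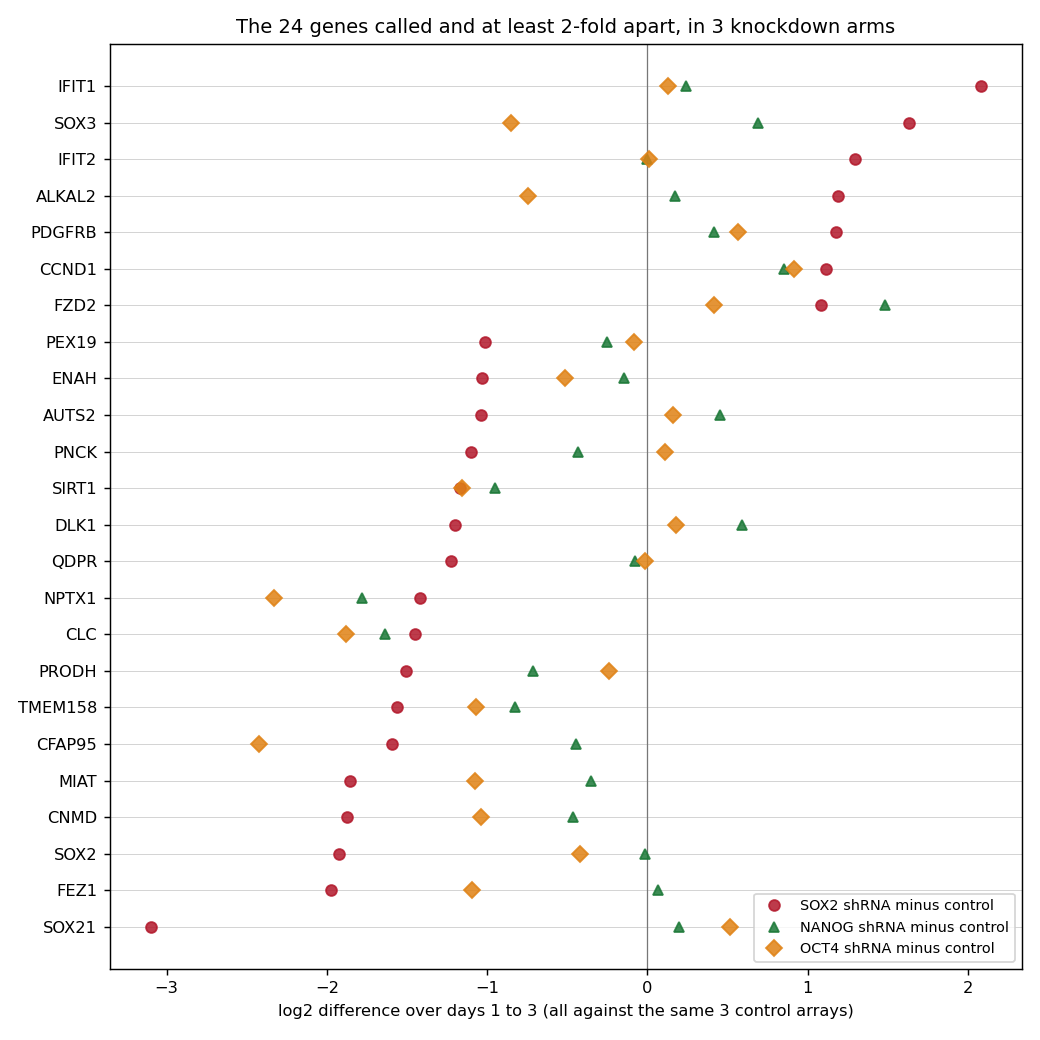
Log2 difference from control over days 1 to 3 (horizontal axis) for the 24 genes called and at least 2-fold apart with SOX2 shRNA (rows), with SOX2 shRNA (red circles), NANOG shRNA (green triangles) and OCT4 shRNA (orange diamonds). CLC, NPTX1, SIRT1 and CCND1 lie at least 0.85 from 0 in each of the 3 arms, while SOX21, QDPR and IFIT1 stand apart with SOX2 shRNA; IFIT2 was below background in the other 2 arms and in control cells.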

How the data were processed

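Illumina bead arrays measured messenger levels in H1 cells. The deposited values are probe intensities on a linear scale, already quantile normalized by the authors, as the values show, and not background subtracted. What software made them is not given in the sources used here. A further table of 80 value columns, whose names match no label, was not used, and the NANOG shRNA array of day 7, of unlike scale, was left out. Background was modelled by normexp (offset 50), and log2 values were used. A probe passed when above an intensity of 144.7, the 99th percentile of 437 olfactory receptor probes (median and robust SD), on at least 3 of 16 arrays. A gene that passed only through its brighter arm had to differ. The brightest passing probe stood for each of 12619 genes, 3425 of which had several. Probes were named through the platform annotation. No coordinates of probes are given.

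limma 3.58.1 in R 4.3.3 fitted the arm difference per window (day 0, days 1 to 3, days 4 to 7) on 16 arrays with the day as a block; the hairpin comparison used 23 arrays. Array titles number the days, which pairs the arms, and the same-day deviations of both arms correlated at 0.391, 0.12 and 0.304 on days 1, 2 and 3. "At least" folds divide the brighter mean by the background level or, where higher, the dim probe's own value. In data simulated for the days 1 to 3 comparison on 12619 genes, 96% of genes changed 1.5-fold and 100% of those changed 2-fold were called. There 16 of the 214 calls were unchanged genes. The line over days 0 to 3 was called for 2 of 50 genes that reached 1.5-fold and for 26 of 50 that reached 2-fold. The simulated scatter was independent between arrays and held no culture effect, so these shares do not cover differences between cultures. Named were the targeted genes, the 10 largest calls each way, up to 6 genes per first-day class, up to 5 each way for other contrasts and up to 3 per list; the rest, the GAAA pair motif and the 50% description were chosen after their values were seen. The members and the 23 lists were chosen with earlier results of these data known.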

Additional observations from a re-analysis of the deposited data

Results flagged for a closer look

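The difference between SOX2 shRNA and control changed from days 1 to 3 to days 4 to 7 for 13 of the named genes. The limma test of that change (adjusted p under 0.05) called 45 of all 12619 genes (0.357%). DUSP6, ACTG2, GLIPR1L1, WLS, AMOT, NPTX1, SNAR-A1, PAMR1, PDLIM3 and RPRML were named, at least in part, for their rank in this same test. The count of 13 was therefore largely fixed by the choice of genes and is only a description. The change was 1.4069 for DUSP6, 1.2822 for ACTG2, 1.0539 for GLIPR1L1, 1.007 for WLS and 0.8606 for AMOT. It was -1.5951 for NPTX1, -1.1705 for SNAR-A1, -0.98 for PAMR1, -0.9673 for PDLIM3, -0.9419 for RPRML, -0.9406 for TMEM158, -0.847 for AUTS2 and -0.7228 for RRM2.

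Among 68 groups of 4 arrays (days 4 to 7 of 1 arm and gene), 3 held an array far from the other 3, about as many as chance flags at 1 in 20. QDPR was at 8.733 on day 4 with SOX2 shRNA, below 8.912 to 8.939 on the other days, and at 9.976 on day 7 in control cells, below 10.213 to 10.24. DLK1 was at 10.332 on day 7 in control cells, above 9.355 to 9.503.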

How the results depend on the processing

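SOX2 kept its call and sign under every alternative run, from -2.22 to -1.81, apart from -0.134 with the day 0 difference taken off. The 617 calls became 273 with no replicate block (the arrays unpaired), 139 with all usable H1 arrays, 386 with a normexp offset of 16, 957 with array weights and 1 with the day 0 difference taken off, and 180 to 728 when 1 day was left out. The 6 slope calls became 3 without the block, 37 on the arrays of the contrast alone, 0 with all H1 arrays, 0 with the offset of 16 and 3 with array weights, and 0 to 16 when 1 day was left out. The 45 calls between windows became 2 without the block, 0 with all H1 arrays, 74 with no background correction, 0 with the offset of 16 and 84 with array weights, and 0 to 76 when 1 day was left out. The 345 calls against the other hairpins became 2144 with array weights and 37 to 447 when 1 day was left out. At 1.5-fold the first-day classes held 13, 58, 88 and 415 genes; with no background correction day 3 held 18, and with the offset of 16 days 2 and 3 held 27 and 102. Of 67 called genes that are named, 45 kept their call without the block, 29 with all H1 arrays and 1 with day 0 taken off, where ADM (0.246) and ZIC2 (0.123) changed sign. The cause of these shifts was not tested, beyond the fewer arrays and larger errors that some of them bring. Of the 24 2-fold genes, DLK1 and NPTX1 lost their call with all H1 arrays and the other 22 kept theirs in the 18 settings other than the day 0 subtraction. Dim probes limit SOX21, IFIT2, IFIT3 and NCALD, and 1 culture per arm limits every result.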
